A study of Homo sapiens with 6 samples.

Results

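A set of 10 genes of the nuclear lamina and the inner nuclear membrane was followed in eHAP cells targeted at TFDP1 and in control cells. They were picked by symbol (TMPO, LMNB1, LMNB2, LMNA, LBR, EMD, LEMD3, BANF1, SUN1 and SUN2), and all 10 were among the 15794 human genes of the authors' deposited table. Their symbols were chosen with earlier results of this comparison known, so their fold changes are a description and carry no independent test.

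The lamina is a mesh of intermediate filament proteins, the lamins, that lines the inside of the nuclear envelope. B-type lamins stay tied to the membrane by a farnesyl tail, whereas lamins A and C, both from LMNA, also occur in the nucleoplasm and are scarce in many undifferentiated cells. Inner membrane proteins hold lamins and chromatin together: LEM-domain proteins bind the small DNA-bridging protein BANF1, and LBR binds B-type lamins and heterochromatin. SUN proteins cross the inner membrane and are linked to the cytoskeleton through partner proteins. In dividing cells the whole structure is taken apart and rebuilt at each mitosis.

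eHAP is a haploid human cell line engineered from HAP1, of chronic myeloid leukaemia origin. The knockout group held 3 biological replicates labelled as TFDP1 knockout and the control group 3 labelled wild-type with no gene targeted. Per the labels, the cells expressed Cas9, took up a plasmid that encoded guide RNAs together with a puromycin resistance gene, were selected with puromycin between 24 and 72 h and were collected 5 days after transfection. What guides the control cells received is not stated there, and no single-cell cloning is described. Poly(A) RNA was sequenced after 10000 Drosophila S2 cells had been added as a spike-in to 500000 eHAP cells. Of 18 blood markers, 7 were among the rows analysed, at 0.177 to 15.3 CPM (read counts scaled to library size), and the pan-leukocyte gene PTPRC was not among them. These stood beside 8 of 12 fibroblast and mesenchymal markers at up to 487 CPM, 5 of 9 epithelial markers at up to 40.0 CPM and 10 of 13 neuronal markers at up to 185 CPM. By the authors' test at an adjusted p under 0.05, which called 39.5% of all genes, 1 blood marker was positive, 2 were negative and 4 uncalled, and 1 fibroblast marker was positive, 6 were negative and 1 uncalled. Of the epithelial markers 0 were positive, 3 negative and 2 uncalled, and of the neuronal markers 1 was positive, 4 were negative and 5 uncalled. Their part in the results for the lamina genes was not tested.

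TFDP1, which encodes the DNA-binding partner of most E2F transcription factors, averaged 226 CPM over the samples, and its log2 fold change in the authors' deposited table was 1.17, or 2.25-fold (adjusted p = 1.08e-283). Nothing in the table says which group is the numerator, and a small Cas9 insertion or deletion need not lower the transcript it hits. Directions are therefore relative to TFDP1. The group in which its transcript was more abundant, be it the knockout or the control, is called TFDP1-high and the other TFDP1-low, and genes with positive fold changes were more abundant in the TFDP1-high group. No values of single replicates were at hand, so neither their spread nor the library depths are known. The error given with each log2 fold change is an approximate standard error, the absolute log2 fold change divided by the square root of the authors' likelihood ratio.

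LMNB1, TMPO and LBR were higher in the TFDP1-high group by 1.73-fold, 1.64-fold and 1.40-fold, and LMNA was lower by 1.40-fold, in the authors' deposited table. SUN2, LMNB2 and LEMD3 were positive by smaller amounts, while EMD, BANF1 and SUN1 did not pass the authors' test. In RNA from whole cultures, fewer cells of a kind and less RNA per cell cannot be told apart. At the authors' adjusted p under 0.05, 6 of the 10 genes were thus positive and 1 was negative, beside 17.3% of all genes called positive, 22.2% called negative and 39.5% called in either direction. All 10 lay above the median level of 23.5 CPM, and among the 7897 genes at or above it 25.4% were called positive, 26.5% negative and 51.9% in either direction. The median log2 fold change of the 10 was 0.15, beside -0.03 over all genes and -0.0027 over the genes at or above the median level.

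**Figure D1:**
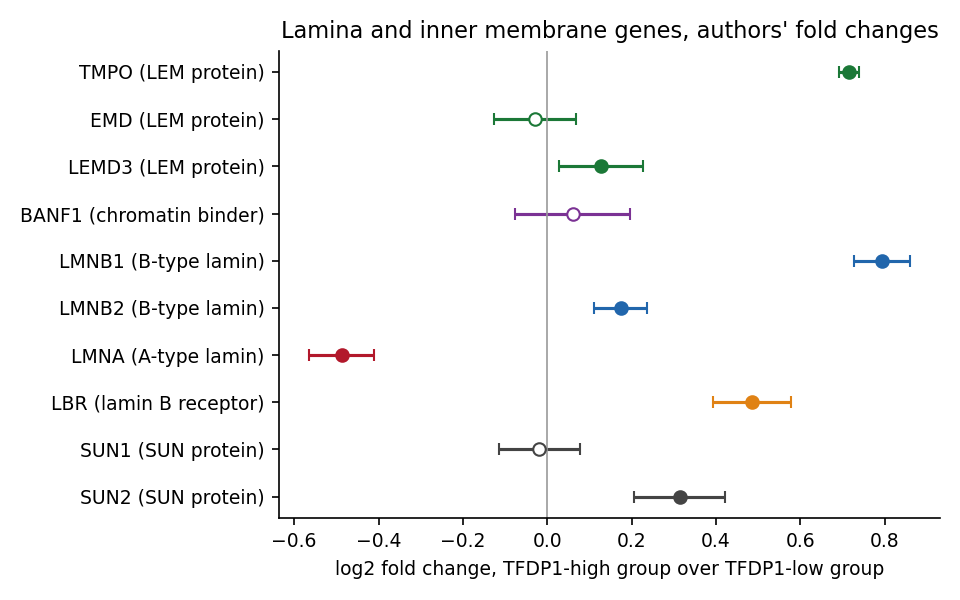
Authors' log2 fold change of each gene (x axis, TFDP1-high group over TFDP1-low group) with bars of 1.96 approximate standard errors, grouped by role; filled points were called by the authors' test at 0.05 and open points were not. LMNB1 (0.79) and TMPO (0.72) lie farthest to the right, LMNA (-0.49) stands alone on the left, and the bars of EMD, BANF1 and SUN1 cross 0.

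The 10 transcripts were abundant, from 69.1 CPM for SUN2 to 582 CPM for LMNB2, and per kilobase of the longest annotated transcript they ranged from 14.9 CPM per kb for LEMD3 to 129 CPM per kb for EMD. EMD (129), LMNB2 (125), BANF1 (124), TMPO (111) and LMNB1 (107 CPM per kb) lay close together on this scale. LBR (72.0) and LMNA (53.4) came next, and SUN1 (22.7), SUN2 (17.0) and LEMD3 (14.9 CPM per kb) were lowest. No spread over samples could be given for these levels, so it is not known which neighbours in this order differ. The same 3 genes were lowest with the exon union or the median transcript as the length, and LMNA stayed in place 7, but the order of the upper 6 changed: TMPO was in place 4 by the longest transcript, 2 by the median transcript and 5 by the exon union.

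**Figure D2:**
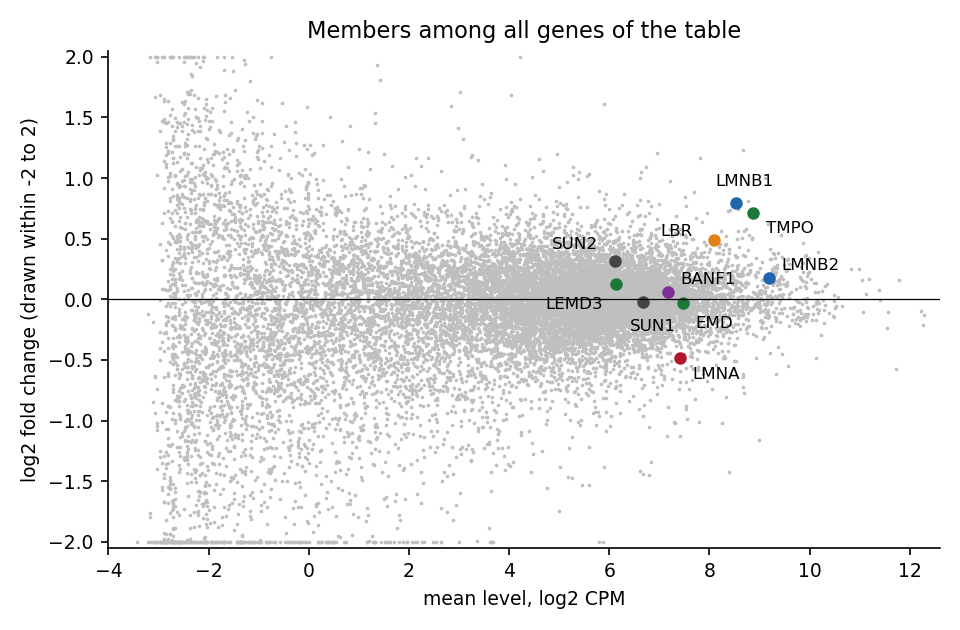
Log2 fold change (y axis, drawn within -2 to 2) against mean level in log2 CPM (x axis) for all 15794 genes in grey and the 10 lamina and inner membrane genes in colour. LMNB1 and TMPO sit at the upper edge of genes of their level and LMNA towards the lower edge, while EMD, BANF1 and SUN1 lie in the middle.

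TMPO encodes the LAP2 proteins, which carry a LEM domain; LAP2beta is an inner membrane protein that binds B-type lamins, and LAP2alpha is a nucleoplasmic form that binds A-type lamins and RB1. It lies on chromosome 12 (GRCh38, positions 98515512 to 98550379, plus strand, ENSG00000120802.13 in GENCODE 29). Its mean of 471 CPM and log2 fold change of 0.72 ± 0.012 imply about 586 CPM in the TFDP1-high group and 357 CPM in the TFDP1-low group, if both groups weigh equally in the mean. Of the 7897 genes at or above the median level, 56 had a higher log2 fold change. The table counts reads per gene, so LAP2alpha and LAP2beta transcripts cannot be told apart.

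The adjusted p of TMPO is listed at 0, and its likelihood ratio of 3586 was far above the 554 of LMNB1, although its fold change was no larger. Its approximate standard error of 0.012 compares with a median of 0.043 over the 132 genes within 0.25 log2 CPM of it, and 3 of those 132 had a smaller one. Of the genes at or above the median level, 31 had a standard error under 0.4 of the median at their level, TMPO among them. With the standard error set to that median, an alternative added after seeing the data, the 95% interval of TMPO was 0.63 to 0.80 in place of 0.69 to 0.74, and the gene still passed. TMPO minus LMNB1 was -0.08, with an interval of -0.15 to -0.0081 as deposited and of -0.20 to 0.04 with that standard error. For the deposited fold changes, which of these genes changed more therefore rests on the small value. With length and GC trends removed the difference was larger, -0.19. The cause of the small value was not tested.

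**Figure D3:**
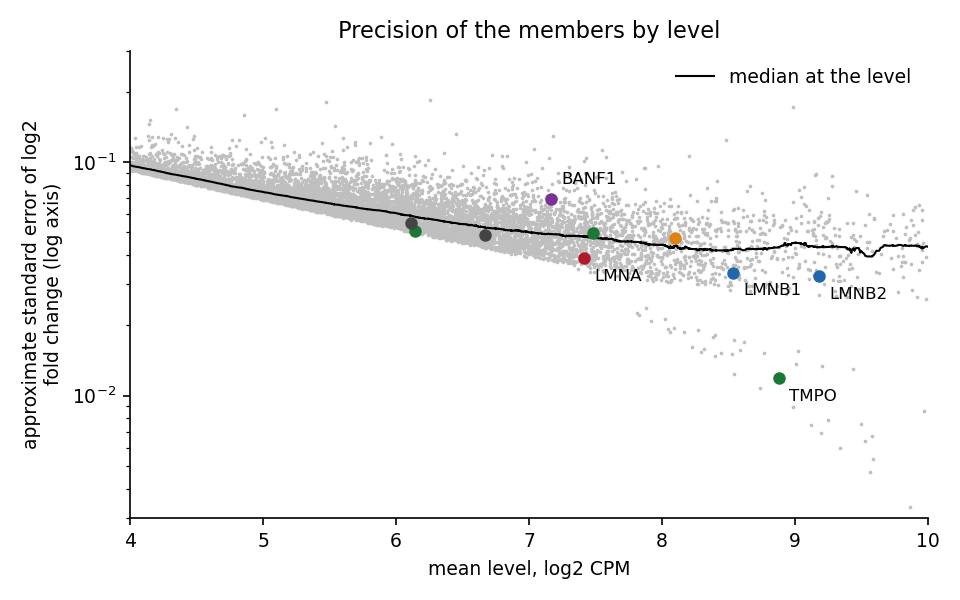
Approximate standard error of the log2 fold change (y axis, log scale) against mean level in log2 CPM (x axis) for all genes in grey, with the running median at each level as a line and the 10 genes in colour. TMPO, at 0.012, lies in a sparse band well below the line, whereas LMNB1 (0.034), LMNB2 (0.033) and LMNA (0.039) lie just under it and BANF1 (0.070) above.

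The antisense gene TMPO-AS1 shares 713 exonic bases with TMPO on the opposite strand, 8.30% of the exonic bases of TMPO. It had a log2 fold change of 0.85 (adjusted p = 6.09e-13) at 10.7 CPM in the authors' deposited table, the same sign as TMPO. The sources used here do not say whether reads were counted by strand, so reads from the shared stretch cannot be told apart. TMPO stood at 471 CPM, but with the counting settings unknown these levels do not bound the reads from the shared stretch. Any part of such reads in the value of TMPO was not tested.

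The other LEM protein genes had smaller log2 fold changes. LEMD3 (chromosome 12, positions 65169571 to 65248327, plus strand), also called MAN1, which restrains SMAD signalling at the inner membrane, had a log2 fold change of 0.13 ± 0.051 at 70.8 CPM (adjusted p = 0.0360 in the authors' deposited edgeR table). That call was lost with the standard error at the median of its level (adjusted p = 0.0649, the interval then 0.01 to 0.24) and after removal of trends on length and GC content (log2 fold change 0.07, adjusted p = 0.316). With fold changes centred on ribosomal protein genes it was at 0.21 and passed (adjusted p = 1.18e-04). EMD (chromosome X, positions 154379197 to 154381523, plus strand) encodes emerin, whose loss causes Emery-Dreifuss muscular dystrophy; it was at -0.03 ± 0.050 and 178 CPM (adjusted p = 0.714), with an interval of -0.13 to 0.07. With length and GC trends removed EMD turned to 0.16 and passed (adjusted p = 0.00604). The difference between TMPO and EMD was 0.74 (interval 0.64 to 0.84), a ratio within the same libraries that no choice of library scaling can shift, but it was 0.49 with length and GC trends removed.

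BANF1, or BAF (chromosome 11, positions 66002079 to 66004149, plus strand), bridges DNA strands and binds LEM domains, and it gathers chromatin when the envelope reforms after mitosis. It was at 0.06 ± 0.070 and 144 CPM (adjusted p = 0.564), with an interval of -0.08 to 0.20 that is wider than those of most genes of its level: of the 777 genes within 0.25 log2 CPM, 728 had a smaller standard error. With length and GC trends removed it was at 0.20 and passed (adjusted p = 0.0141). BANF1 shares 98 exonic bases with EIF1AD on the opposite strand, a gene at 33.02 CPM with a log2 fold change of 0.15 (adjusted p = 0.0838).

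The 3 lamin genes differed from each other. LMNB1, on chromosome 5 (positions 126776623 to 126837020, plus strand), had the highest log2 fold change of the 10 genes, 0.79 ± 0.034 (adjusted p = 9.54e-120 in the authors' deposited edgeR table). Its implied levels were 471 CPM in the TFDP1-high group and 272 CPM in the TFDP1-low group. Of the 7897 genes at or above the median level, 32 (0.405%) had a higher log2 fold change. LMNB2, the second B-type lamin gene, on chromosome 19 (positions 2427638 to 2456996, minus strand), was the most abundant of the 10 in CPM but moved by only 0.17 ± 0.033 (adjusted p = 9.67e-07), or by 0.29 with length and GC trends removed. Its implied levels were 617 CPM in the TFDP1-high group and 547 CPM in the TFDP1-low group. The difference between LMNB1 and LMNB2 was 0.62 (interval 0.53 to 0.71).

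LMNA, on chromosome 1 (positions 156082573 to 156140089, plus strand), was the only gene of the 10 called negative. Its log2 fold change was -0.49 ± 0.039 (adjusted p = 6.55e-34 in the authors' deposited edgeR table), with implied levels of 142 CPM in the TFDP1-high group and 199 CPM in the TFDP1-low group. Of the genes at or above the median level, 299 (3.79%) had a lower log2 fold change. The ratio of LMNB1 to LMNA was thus 2.43-fold higher in the TFDP1-high group, a log2 difference of 1.28 (interval 1.18 to 1.38). With length and GC trends removed LMNA was at -0.33 and the difference between LMNB1 and LMNA was 1.17. Per kilobase of the longest transcript, LMNA made up 14.3% of lamin transcripts in the TFDP1-high group and 24.2% in the TFDP1-low group. LMNB1 made up 43.4% in the TFDP1-high group and 30.3% in the TFDP1-low group, and LMNB2 42.3% in the TFDP1-high group and 45.4% in the TFDP1-low group. These shares rest on the transcript chosen for the length: by the exon union LMNA made up 7.71% in the TFDP1-high group and 13.97% in the TFDP1-low group.

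TIMM13, a mitochondrial import gene, shares 257 exonic bases with LMNB2 on the same strand. It stood at 245 CPM and -0.11 (adjusted p = 0.120), not called and opposite in sign to LMNB2. LMNB1 and LMNA share no exonic bases with another gene of the table in GENCODE 29.

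LBR, the lamin B receptor, is a membrane protein that tethers heterochromatin and also acts as a sterol reductase. It lies on chromosome 1 as LMNA does (positions 225401502 to 225428925, minus strand). Its log2 fold change was 0.49 ± 0.047 (adjusted p = 4.73e-23 in the authors' deposited edgeR table), with implied levels of 320 CPM in the TFDP1-high group and 229 CPM in the TFDP1-low group. LBR and LMNA therefore differed by 0.97 (interval 0.85 to 1.09), with LBR the higher, or by 0.73 with length and GC trends removed. The 1473 genes of chromosome 1 had a median log2 fold change of -0.02. The 776 genes of chromosome 12, which carries TMPO and LEMD3, had a median of 0.01, and the 657 of chromosome 5, which carries LMNB1, one of 0.0086. Medians lay farther from 0 on chromosome 19 of LMNB2 (-0.11), X of EMD (-0.07) and 11 of BANF1 (-0.05). They were -0.05 on chromosome 22 of SUN2 and -0.03 on chromosome 7 of SUN1.

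The SUN genes also parted. SUN1 lies on chromosome 7 (positions 816615 to 896435, plus strand) and SUN2 on chromosome 22 (positions 38734725 to 38794143, minus strand). SUN1 and SUN2 proteins bind lamins inside the nucleus and the KASH domains of nesprins in the space between the membranes, which links the nucleus to the cytoskeleton. SUN2 was at 0.31 ± 0.055 and 69.1 CPM (adjusted p = 1.26e-07 in the authors' deposited edgeR table), and SUN1 at -0.02 ± 0.049 and 102 CPM (adjusted p = 0.821). Their difference was 0.33 (interval 0.19 to 0.48). Both share exons with neighbours. GET4, on the strand of SUN1, shares 1842 exonic bases with it, 15.6% of the exonic bases of SUN1, and was at -0.14 and 118 CPM (adjusted p = 0.0428). SUN2 shares 680 exonic bases with GTPBP1 on the opposite strand (0.15, adjusted p = 0.0234) and 76 with DNAL4 on its own strand (0.34, adjusted p = 0.00404), and all 3 had the same sign.

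The 6 lists of other nuclear envelope genes held 54 genes, of which 52 were in the table. The authors' test called 17 of these positive and 5 negative and left 30 uncalled. Over all genes 17.3% were called positive and 22.2% negative, so positive calls were the more frequent in the lists and negative calls over all genes. The 42.3% called in either direction lay near the 39.5% of all genes. Of the 40 listed genes at or above the median level 20 were called, beside 51.9% of all genes there. Their median log2 fold change was 0.03, beside -0.03 over all genes. The list of other inner membrane and LEM-domain proteins gave 4 positive, 1 negative and 7 uncalled genes of 12. The 41.7% called in either direction were also near the share of all genes, again with more positive than negative calls. NRM, or nurim, a multi-pass membrane protein, was at 0.76 and 26.5 CPM (adjusted p = 2.22e-21), close to LMNB1 in size. NEMP1, which supports nuclear stiffness, was at 0.40, the BANF1 regulator ANKLE2 at 0.23 and TMEM201, also called SAMP1, at 0.21. ANKLE1, a LEM-domain nuclease that is not a membrane protein, was at -0.54 and 60.3 CPM (adjusted p = 2.67e-16), the only negative call of this list.

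Of 5 KASH partners of the SUN proteins 40% were called, beside 39.5% of all genes, with 2 positive and 0 negative genes. These were SYNE2 at 0.83 and 59.3 CPM (adjusted p = 2.52e-23) and SYNE1 at 0.60 and 7.72 CPM (adjusted p = 1.98e-05), both coding for giant nesprins. The other 3 genes were below 3 CPM. Of 6 enzymes that process the lamin tail, ICMT, the methyltransferase that caps the farnesylated cysteine, was positive at 0.29 and 228 CPM (adjusted p = 9.99e-17) and the other 5, with the prelamin protease ZMPSTE24 (-0.09, adjusted p = 0.123) among them, were not called. None of 5 torsin genes, coding for ATPases of the envelope lumen, passed the authors' edgeR test. Of the 5, 2 had an unadjusted p under 0.05 in that test, beside 7470 of all 15794 genes. The shares called were thus 16.7% of the tail enzymes and 0% of the torsin genes, beside 39.5% of all genes.

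Genes of envelope breakdown and resealing had small log2 fold changes, ranging from -0.24 to 0.23, and of the 13 genes 4 were positive, 2 negative and 7 uncalled. So 46.2% were called, beside 39.5% of all genes. Of the 12 at or above the median level 6 were called, beside 51.9% of all genes there. VRK1, the kinase that releases BANF1 from chromatin, was at 0.23 (adjusted p = 4.93e-04) and the microtubule-severing enzyme SPAST at 0.19. The ESCRT genes VPS4B and CHMP2A were at 0.15 and 0.16, against -0.24 for CHMP4B, and the lipin gene LPIN1 was at -0.14. Chromatin and nuclear partners of the lamina numbered 11, of which 6 were positive, 2 negative and 3 uncalled. Their median log2 fold change was 0.17, beside -0.03 over all genes. In this list 72.7% were called, beside 39.5% of all genes. Of its 10 genes at or above the median level 7 were called, beside 51.9% of all genes there. RB1, which binds A-type lamins and LAP2alpha, was at 0.54 (adjusted p = 4.98e-30), the emerin partner LMO7 at 0.51, the transcription regulator BCLAF1 at 0.20 and the heterochromatin protein gene CBX1 at 0.22. Both RB1 and LMO7 lie on chromosome 13, as the targeted gene TFDP1 does, and any part of this position in their values was not tested. CASP6, whose protease cleaves lamin A, was at -0.28. MLIP, coding for a lamin-interacting protein of muscle, was at -2.88 at a level of only 0.3995 CPM. With length and GC trends removed, an alternative added for these lists after seeing the data, the named genes BCLAF1 (0.02, adjusted p = 0.647), SPAST (0.09, adjusted p = 0.249) and VPS4B (0.09, adjusted p = 0.179) no longer passed, and LPIN1 passed neither with centring on the median gene nor on ribosomal protein genes (-0.06, adjusted p = 0.461, on the second).

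**Figure D4:**
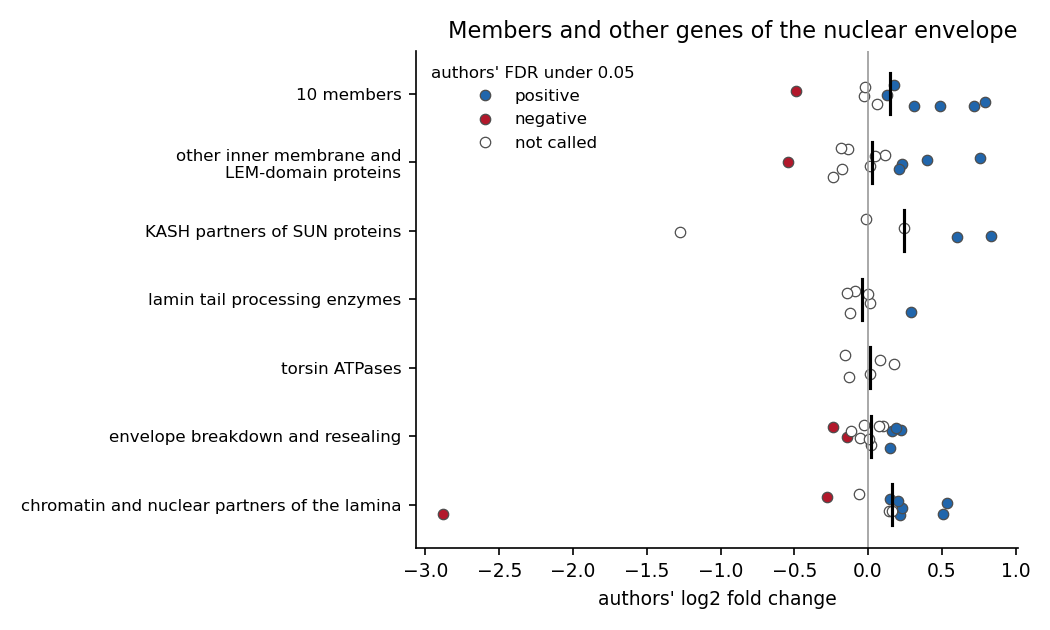
Authors' log2 fold change (x axis) of each gene in the 10 lamina and inner membrane genes and in the 6 lists of other envelope genes, 1 row a list; colour shows the direction of called genes, open points were not called and black bars are medians. NRM (0.76) and SYNE2 (0.83) reach the range of LMNB1 and TMPO, while the torsin and breakdown genes stay within -0.24 and 0.23.

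Promoter sequence was examined because DP1 and E2F factors bind DNA together, and it does not depend on the expression values. The RefSeq windows used run from 250 bases before to 50 after each annotated start on GRCh38.p14, and 9 of the 10 genes matched by symbol, with 1 to 3 windows each; SUN1 was not matched. The E2F words searched on both strands were TTCCCGC with its variants TTGGCGC as well as TTCGCGC as well as TTGCCGC, the words of the cell cycle homology region (CHR) were TTTGAA and TTTAAA, and the CCAAT box was searched by its letters. The second CHR word reads alike on both strands, and no words of different kinds overlapped in the windows of these genes. Windows are printed for TMPO, LMNB1 and LBR, the genes with the highest log2 fold changes, and for LMNA and LEMD3, with these words in capitals.
TMPO, chr12:98515323-98515622, plus strand: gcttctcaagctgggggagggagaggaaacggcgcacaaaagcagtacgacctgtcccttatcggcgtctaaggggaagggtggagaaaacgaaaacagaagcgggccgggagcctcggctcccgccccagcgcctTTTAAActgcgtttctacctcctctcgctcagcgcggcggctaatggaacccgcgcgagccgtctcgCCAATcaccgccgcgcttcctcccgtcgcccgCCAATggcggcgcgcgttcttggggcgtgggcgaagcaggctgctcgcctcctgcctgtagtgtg
LMNB1, chr5:126776886-126777185, plus strand: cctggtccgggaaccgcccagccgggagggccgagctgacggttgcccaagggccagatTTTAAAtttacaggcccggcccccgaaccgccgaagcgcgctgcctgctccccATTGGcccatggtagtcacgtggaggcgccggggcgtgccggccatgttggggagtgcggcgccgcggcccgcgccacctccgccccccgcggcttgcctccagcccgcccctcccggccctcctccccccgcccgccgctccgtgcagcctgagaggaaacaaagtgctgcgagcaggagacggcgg
LBR, chr1:225428772-225429071, minus strand: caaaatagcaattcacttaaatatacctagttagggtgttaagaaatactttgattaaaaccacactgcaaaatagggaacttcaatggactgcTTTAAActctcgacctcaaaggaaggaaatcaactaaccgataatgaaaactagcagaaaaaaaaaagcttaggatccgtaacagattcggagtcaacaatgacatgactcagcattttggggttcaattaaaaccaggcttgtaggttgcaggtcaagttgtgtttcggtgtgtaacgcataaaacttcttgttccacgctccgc
LMNA, chr1:156082323-156082622, plus strand: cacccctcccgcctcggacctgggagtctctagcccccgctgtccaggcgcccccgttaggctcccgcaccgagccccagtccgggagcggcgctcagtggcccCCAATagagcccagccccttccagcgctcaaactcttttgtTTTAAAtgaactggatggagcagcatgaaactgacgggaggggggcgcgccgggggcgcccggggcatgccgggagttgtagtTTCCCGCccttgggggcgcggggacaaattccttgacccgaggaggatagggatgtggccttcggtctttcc
LEMD3, chr12:65169333-65169632, plus strand: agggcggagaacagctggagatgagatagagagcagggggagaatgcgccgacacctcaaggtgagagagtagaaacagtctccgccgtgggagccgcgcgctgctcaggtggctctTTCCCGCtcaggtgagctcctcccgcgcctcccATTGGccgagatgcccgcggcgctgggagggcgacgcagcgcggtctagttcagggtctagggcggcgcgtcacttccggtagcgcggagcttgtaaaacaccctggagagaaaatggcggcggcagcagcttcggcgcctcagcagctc

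An E2F word lay in a window of 3 of the 9 genes, LMNA, LEMD3 and BANF1, and in 15.3% of all 27305 symbols with a window. Counting the first transcribed base as 0, it was at -22 to -16 in LMNA, at -133 to -127 in LEMD3 and at -162 to -156 in BANF1, each time as TTCCCGC. The windows of TMPO, LMNB1 and LBR, printed above, held none of these words. Of the 6 genes called positive, 1 held an E2F word, as did LMNA, the 1 called negative. A CHR word lay in a window of 7 of the 9 genes and of 27.9% of all symbols, and a CCAAT box in 6 of the 9 and in 39.7%. All symbols had a median of 1 window, against 1 to 3 for these genes, and were not limited to genes expressed here. The shares are thus not matched to these genes. TMPO had TTTAAA at -114 to -109 and CCAAT boxes at -47 to -43 and -15 to -11. In the printed window LMNB1 had TTTAAA at -191 to -186 and a CCAAT box, read on the reverse strand, at -138 to -134, and its other window, upstream, had TTTAAA at -225 to -220. LBR had TTTAAA at -156 to -151. LMNA had words of all 3 kinds in 1 window. With 1 gene in the negative group, no comparison by direction could be made, and a match or its lack in these windows says nothing of binding.

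**Figure D5:**
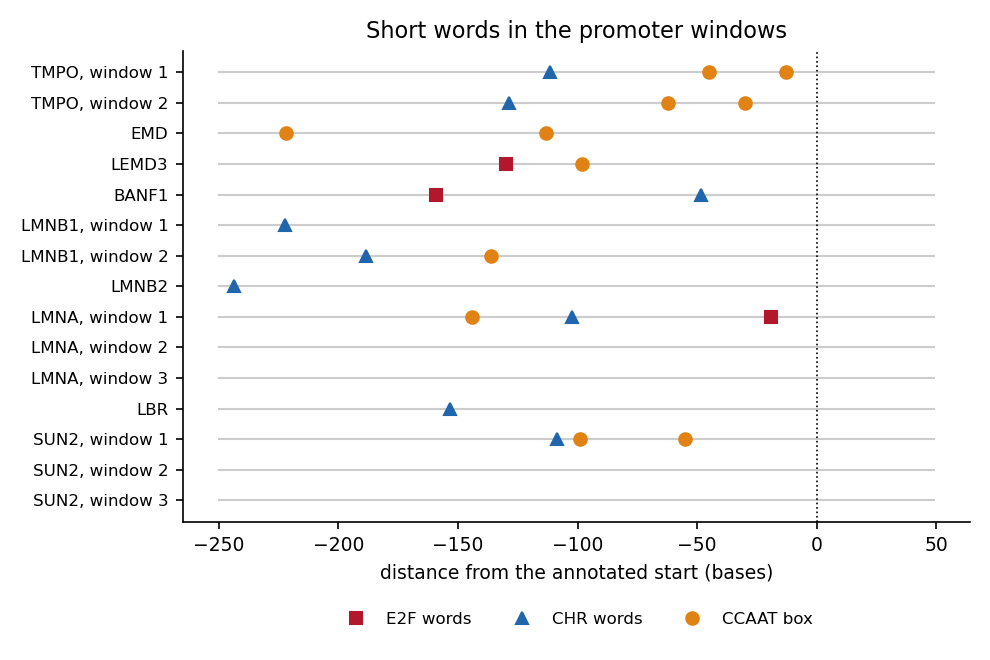
Distance of E2F, CHR and CCAAT words from the annotated start (x axis, in bases, start at 0) in each promoter window, 1 row a window, for the 9 genes with a window. E2F words (squares) appear in LEMD3, BANF1 and LMNA, and CHR words (triangles) in 7 of the 9 genes.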

How the data were processed

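Poly(A) RNA of 3 TFDP1 knockout and 3 control samples of eHAP cells was sequenced. The builds hg38 and dm6 and the tools Trimmomatic, HISAT2, featureCounts and edgeR appear in the submitters' processing notes; the sources used here give neither counting settings nor library scaling. The authors deposited a log2 fold change and a mean level in log2 CPM per gene. The authors' likelihood ratio is a score per gene, and the p-value and its adjustment (FDR) are as deposited. No values per sample were used, so depth is unknown and no test across samples was made.

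A gene was called where the authors' FDR was under 0.05, and its sign gave the direction. Intervals are 1.96 approximate standard errors and treat genes as independent. Length and GC content came from GENCODE 29, matched by symbol for 14777 genes, and trends on both were taken out by lowess (span 0.3). Re-centred tests used the approximate standard error and Benjamini-Hochberg adjustment over all genes of the deposited table. The authors' FDR differs from such an adjustment of their p-values over these rows. Adjusted p-values of the authors and of the tests made here are therefore not strictly comparable. Only the centring on the median gene was run on simulated fold changes. Their noise was drawn from that same standard error, so the run cannot check the error itself. Promoter windows are RefSeq's, on GRCh38.p14; protein sequences were not analysed here. Members and lists were chosen with earlier results of these data known. The text names all members, each list's called genes (the 6 with the smallest p where more were called), RB1, ZMPSTE24, chosen after its value was seen, and genes that share exons with members. Tools were Python 3.11.15, pandas 2.3.3, numpy 2.4.6, scipy 1.17.1, statsmodels 0.14.6 and matplotlib 3.10.9.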

Additional observations from a re-analysis of the deposited data

How the results depend on the processing

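The signs of the 7 called lamina genes were the same under re-centring on the median gene (log2 -0.03) or the median ribosomal protein gene (-0.09) and with length and GC trends removed. EMD turned positive on the ribosomal centring (0.057) and with trends removed (0.16), and SUN1 on the median gene (0.0069) and the ribosomal centring (0.067). The number of lamina genes called positive was 6, and it was 5 at an FDR under 0.01, 5 with the standard error at the median of the level and 3 with a change of at least 25%. That fold limit left 3 other inner membrane and LEM-domain genes in place of 5, 0 lamin processing genes in place of 1, 0 breakdown and resealing genes in place of 6 and 3 chromatin partners in place of 8. Breakdown and resealing genes numbered 3 at an FDR under 0.01. Torsin genes numbered 1 in place of 0 on the ribosomal centring, at an FDR under 0.1, adjusted over the table's rows, above the median level and with the standard error at the median of the level. The shares of all genes called at these other settings are not given here. A change in count therefore cannot be read as particular to a list. The difference LEMD3 minus EMD, 0.16 as deposited, was -0.090 with trends removed. The KASH count was 1 in place of 2 above the median level, which leaves out SYNE1. With E2F words one base longer, 2 genes held one in place of 3. No paired analysis was possible because the table holds no values per replicate; leaving out replicates was not run for the same reason. The lack of depth limits what can be said of genes at low level, such as MLIP.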
